A study of Mus musculus with 8 samples.

Results

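The genes Apobec1, Apobec2 and Apobec3 encode the APOBEC family of cytidine deaminases, enzymes or relatives of enzymes that turn cytosine into uracil in RNA or DNA. They were matched by symbol to their Ensembl identifiers and make up 3 of the 54532 genes listed in the expression table. They were chosen by family name, but with their rlog difference between the strains known, so they count as selected on that contrast and their strain differences are described here and not tested. All 3 passed the filter on low values, a mean regularized log (rlog) value of at least 0.

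The study bred BALB/cN with C57BL/6N mice to find genes that shape the growth of lymphatic vessels, and sequenced corneas of both parental strains to see which genes of a locus on chromosome 17 differ in expression. The RNA came from the normal, untreated corneas of male mice of these inbred strains, with 4 corneas of BALB/cN, an albino strain written Balb/c in the labels, and 4 of C57BL/6N, a black strain. No allele was engineered and no agent was given in either group. The labels number the corneas 1 to 4 in each strain but do not say that they came from separate animals, so p-values measure the spread between these corneas, which may be partly technical. The values are rlog values, which are on a log2 scale, normalized for library size and drawn towards the mean of each gene, more strongly where few reads were counted, so that they understate the fold change of weakly expressed genes. The table holds no read counts, and the depth of each cornea is unknown here.

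Members of the APOBEC family share a zinc-binding deaminase fold. APOBEC1 is the catalytic subunit that edits the messenger RNA of apolipoprotein B in the small intestine, and it needs an RNA-binding partner to do so. APOBEC2 is known from heart and skeletal muscle, where no editing activity has been firmly assigned to it. APOBEC3 restricts retroviruses and mobile elements, mice have a single Apobec3 gene, and its alleles are known to differ between inbred strains in splicing and in virus control. Some family genes of primates respond to interferon.

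Apobec1 (ENSMUSG00000040613) spans bases 122577792 to 122602444 of chromosome 6 (GRCm38, minus strand). Apobec2 (ENSMUSG00000040694) spans bases 48419231 to 48432930 of chromosome 17 (minus strand), inside the locus of the study. The paper lists it among the genes of that locus that differ in expression, higher in BALB/cN. Its log2 fold change there, from read counts, was much larger than the rlog difference given below, which is shrunken. Apobec3 (ENSMUSG00000009585) spans bases 79891659 to 79915906 of chromosome 15 (plus strand). The 250 bases before the RefSeq start are shown for Apobec1 and Apobec3, one gene whose strains overlapped and one whose strains did not, to set their promoters side by side. They are written in the direction of transcription, from RefSeq on build GRCm38.p6. Capitals mark a match to the core of the interferon-stimulated response element, searched on both strands as GAAA, any 2 bases and GAAA. The Apobec1 window, chr6:122602445-122602694 on the minus strand, holds no match and touches no annotated exon. The Apobec3 window, chr15:79892158-79892407 on the plus strand, holds 1 match that begins at base -140, counted from the start. All 250 bases of it lie in annotated exons. This window also lies after base 79891659, where the annotated Apobec3 gene begins, so it is upstream of the RefSeq start only. No window before the annotated start was searched.
Apobec1 upstream: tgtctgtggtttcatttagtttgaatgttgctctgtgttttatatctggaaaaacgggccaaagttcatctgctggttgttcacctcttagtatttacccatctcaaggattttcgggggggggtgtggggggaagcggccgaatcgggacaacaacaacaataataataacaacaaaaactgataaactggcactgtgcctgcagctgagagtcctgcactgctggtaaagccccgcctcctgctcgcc
Apobec3 upstream: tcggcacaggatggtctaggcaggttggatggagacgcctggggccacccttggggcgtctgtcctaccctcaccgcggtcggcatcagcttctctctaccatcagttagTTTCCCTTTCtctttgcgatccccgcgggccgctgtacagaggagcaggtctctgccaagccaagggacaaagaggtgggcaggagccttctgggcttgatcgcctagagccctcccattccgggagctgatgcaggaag

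This core was present in 1131 of 32851 RefSeq promoter windows that run from 250 bases before to 50 after a start (3.44%), and in 8 of the 11 genes of an interferon-stimulated list that had a window. A second annotated start of Apobec3 had no match. The start of Apobec2, whose strains did not overlap either, had none as well, so a match did not go with the strain gap in these genes. The letters of the gamma-activated sequence, TTCNNNGAA, were in 8.30% of windows and in none of the windows of the 3 APOBEC genes. The muscle E-box CAGCTG was in 16.3% of windows, and Apobec1 and Apobec2 each had 1. These motifs do not overlap in the windows of the APOBEC genes, and a match is a description of letters, not of a bound factor.

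Apobec2 had the widest gap between the strains of the 3 genes. The rlog values of BALB/cN corneas 1 to 4 were 6.42, 6.31, 6.34 and 6.59. Those of C57BL/6N corneas 1 to 4 were 4.86, 5.08, 5.04 and 4.95. Every BALB/cN cornea was above every C57BL/6N cornea, and the values within a strain lay close together. The strain means were 6.41 ± 0.13 (SD, n = 4) and 4.98 ± 0.10 (SD, n = 4), a difference of 1.43 (standard error 0.0946) that corresponds to a ratio of 2.70 on the shrunken scale. In absolute size this difference exceeded that of 99.1% of the 25402 genes compared. The mean rlog value of Apobec2 over all corneas was above that of 43.0% of these genes.

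Apobec3 was also higher in every BALB/cN cornea. The BALB/cN corneas 1 to 4 had rlog values of 9.34, 9.23, 9.21 and 9.19. The C57BL/6N corneas 1 to 4 had 8.68, 8.45, 7.55 and 7.87. The BALB/cN corneas were nearly level, while the C57BL/6N corneas were spread out, with corneas 3 and 4 the lowest. The means were 9.24 ± 0.07 (SD, n = 4) and 8.14 ± 0.52 (SD, n = 4), a difference of 1.1 (standard error 0.216) or a ratio of 2.15 on the shrunken scale. This difference was larger in absolute size than that of 98.5% of the genes compared. The SD of Apobec3 within C57BL/6N was larger than that of 96.7% of the genes compared, whereas its SD within BALB/cN was larger than that of 33.7%.

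Apobec1 was close to level. In BALB/cN corneas 1 to 4 its rlog values were 8.53, 8.29, 8.45 and 8.76. In C57BL/6N corneas 1 to 4 they were 8.50, 8.35, 8.25 and 8.27. The strains overlapped, and only BALB/cN cornea 4 stood clearly above the C57BL/6N range. The means were 8.51 ± 0.20 (SD, n = 4) and 8.35 ± 0.11 (SD, n = 4), and their difference of 0.16 (standard error 0.106) was under the SD of the BALB/cN corneas.

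By limma with Benjamini-Hochberg adjustment over all 25402 genes, 1458 genes (5.74%) were called between the strains at an adjusted p of 0.01 or less, 718 higher (2.83%) and 740 lower (2.91%) in BALB/cN. The strains did not overlap in 4656 genes (18.3%), of which 2223 (8.75% of the genes compared) were higher in BALB/cN. Apobec2 and Apobec3 passed this threshold and did not overlap, and Apobec1 did neither, but nothing is read from this since the contrast chose the genes. Apobec2 passed under 19 of 20 other settings and Apobec3 under 7 of 20, and Apobec3 missed the threshold when any cornea except C57BL/6N cornea 1 was left out. These counts describe how the fit depends on its settings. They are no support for the differences, since every setting uses the values that chose the genes.

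**Figure D1:**
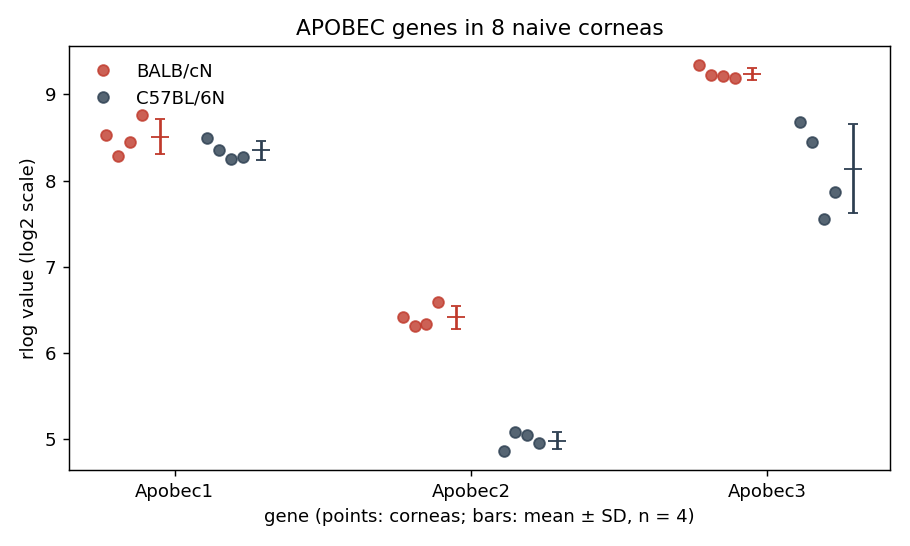
The rlog value (log2 scale) of each APOBEC gene in the 4 BALB/cN (red) and 4 C57BL/6N (dark) corneas, in order of cornea number from left to right, with the mean and SD of each strain beside the points. Apobec2 and Apobec3 are separated by strain, with differences of 1.43 and 1.1, Apobec1 overlaps, and the C57BL/6N values of Apobec3 are spread from 7.55 to 8.68.

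Levels of the 3 genes can be compared only per length, for which log2 of the gene length in kb was subtracted from the rlog value. With the union of exons as the length (2702, 1597 and 9454 bases for Apobec1, Apobec2 and Apobec3), the BALB/cN means were 7.07 for Apobec1, 6.00 for Apobec3 and 5.74 for Apobec2 on this per-kb rlog scale. The lowest BALB/cN value of Apobec3, 5.95, was just above the highest of Apobec2, 5.92. In C57BL/6N the per-kb means by the union of exons were 6.91 for Apobec1, 4.90 for Apobec3 and 4.31 for Apobec2, and here the values of Apobec3 (4.31 to 5.44) and Apobec2 (4.19 to 4.4) overlapped. Apobec3 has 11 annotated coding transcripts, so the choice of length matters most for it. With the longest coding transcript (2265, 1420 and 2765 bases), Apobec3 came first in BALB/cN at a per-kb mean of 7.77 against 7.33 for Apobec1 and 5.91 for Apobec2. In C57BL/6N Apobec1 stayed first at a per-kb mean of 7.17 by this length, with Apobec3 at 6.67 and Apobec2 at 4.48. The order of Apobec1 and Apobec3 in BALB/cN thus turned on the length used, while Apobec2 had the lowest mean by both lengths in both strains.

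The cornea holds an outer epithelium, a stroma of keratocytes and scattered macrophages, and in bulk tissue fewer cells of a type and less RNA per cell cannot be told apart. Markers of corneal epithelium were high in all corneas, with a log2 summed level (the log2 of the sum of the values put back on the linear scale) of 20.87 to 21.07 in BALB/cN and 20.88 to 21.03 in C57BL/6N. The mean rlog value of 6 stromal keratocyte markers was 13.91, 11.97, 13.94 and 13.94 in BALB/cN corneas 1 to 4, and 14.26, 14.23, 11.06 and 11.22 in C57BL/6N corneas 1 to 4. Lens and pigment cell markers also varied, with BALB/cN corneas 1 and 4 the highest in both. None of the markers of these or the other cell types below was called between the strains, against 5.74% of all genes.

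The C57BL/6N corneas lowest in stromal markers, 3 and 4, were those with the least Apobec3. BALB/cN cornea 2 was also low in stromal markers, yet its Apobec3 value of 9.23 was level with the rest of its strain. Without these 3 corneas the Apobec3 difference was 0.68 (standard error 0.0936), and with the stromal mean as a covariate it was 0.94 (standard error 0.125). The part of the stroma in the Apobec3 difference was not tested beyond these values. Apobec2 barely moved under the same choices, with a difference of 1.48 without the 3 corneas and 1.42 with the covariate. For Apobec1 the differences were 0.16 and 0.11. Without BALB/cN corneas 1 and 4, which were high in lens markers and had the highest Apobec1 and Apobec2 values of their strain, the differences were 0.03 for Apobec1, 1.34 for Apobec2 and 1.08 for Apobec3.

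Macrophages, B cells and muscle are cells in which members of the family are known to be expressed. All 13 macrophage markers were detected, with a log2 summed level of 11.79 to 11.96 in BALB/cN and 11.73 to 11.88 in C57BL/6N corneas, ranges that overlap. Itgam (mean rlog values of 10.45 in BALB/cN and 10.64 in C57BL/6N) and Cd68 (10.33 and 10.12) made up most of this level. It therefore says little about the other macrophage markers. The mean rlog value of all 13 markers was 7.01, 6.44, 6.91 and 7.14 in BALB/cN corneas 1 to 4 and 6.91, 7.01, 6.30 and 6.25 in C57BL/6N corneas 1 to 4, so that it too was low in the corneas low in stromal markers. Of 6 B cell markers, 2 (Ms4a1 and Cd22) were at 0 in every cornea, 3 were under the filter and 1 passed it, with log2 summed levels of 4.79 to 5.02 and 4.59 to 4.95. Of 6 T cell markers, 3 were at 0, 1 was under the filter and 2 passed, with log2 summed levels of 2.86 to 3.0 and 2.90 to 3.11. Of 14 skeletal muscle markers, the defining factors Myod1 and Myog were at 0 and Pax7 was under the filter. The log2 summed level of the muscle list was 10.03 to 10.51 in BALB/cN and 9.89 to 10.18 in C57BL/6N, and 1 gene, the troponin Tnni2 (mean rlog values of 10.16 and 9.87), made up most of it. The mean rlog value of the list was 2.82 to 2.99 in BALB/cN and 2.82 to 3.02 in C57BL/6N. The part of muscle RNA in the Apobec2 difference was not tested.

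Apobec4, a relative of the family without an assigned activity, was listed at 0 in every cornea. A 0 in the table need not mean absence, since Trex1 and Adat3, which most cells use, were listed at 0 as well. The RNA-binding partner A1cf, which guides APOBEC1 to its target, was also at 0, and the target Apob itself was under the filter with mean rlog values of -2.09 in BALB/cN and -2.1 in C57BL/6N. Rbm47, an alternative partner, was abundant, with mean rlog values of 12.12 ± 0.11 (SD) for the 4 BALB/cN and 12.33 ± 0.19 for the 4 C57BL/6N corneas. Of the 7 partners and target, 5 were tested and none was called at the threshold, against 5.74% of all genes. Their differences ran from -0.27 for Celf2 (adjusted p = 0.0795, limma) and -0.21 for Rbm47 to -0.07 for Syncrip, -0.06 for Khsrp and -0.02 for Hnrnpab, with a median of -0.07 against 0.00771 over all genes tested. The Apobec1 difference of 0.16 was of the opposite sign.

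Among 11 other deaminases of nucleotides and RNA, 9 were tested and 1 was called, against 5.74% of all genes. Adar, the adenosine deaminase of double-stranded RNA, had rlog values of 12.49, 12.69, 12.37 and 12.65 in BALB/cN and 11.55, 11.68, 11.72 and 11.62 in C57BL/6N corneas. Its difference of 0.91 (standard error 0.0765, adjusted p = 5.79e-05, limma) was the nearest in size to those of Apobec2 and Apobec3 in this list. The cytidine deaminase of nucleoside salvage, Cda, differed by -0.46 (adjusted p = 0.0664, limma), and Dctd, which deaminates dCMP, by 0.34 (adjusted p = 0.167, limma). Adarb1, which edits receptor transcripts, differed by -0.16. The median of the list was 0.01.

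Uracil left in DNA by a deaminase is removed by glycosylases and mismatch repair, and the 11 genes of that list were all tested. Tdg, a thymine and uracil glycosylase, was lower in BALB/cN by limma with a difference of -0.49 (standard error 0.0944, adjusted p = 0.00871), a call that was lost without BALB/cN cornea 1, 3 or 4 or without any C57BL/6N cornea (adjusted p up to 0.0318) and in 6 further settings. Ung, the main uracil glycosylase, differed by 0.41 (adjusted p = 0.0347, limma). Of the 11 genes, 0 were called higher and 1 lower, against 2.83% and 2.91% of all genes. So few genes cannot tell the list from those shares. The median difference was -0.01.

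A list of genes tied to retroviruses and mobile elements, on which Apobec3 acts, was higher in BALB/cN only in part. Of 10, 9 were tested and Trex1 was listed at 0. The 3 genes called were all higher in BALB/cN, against 2.83% of all genes in that direction. They were Bst2, which tethers budding virus (difference 1.73, standard error 0.297), Mov10, an RNA helicase (0.46, standard error 0.0635), and Zc3hav1, an antiviral RNA-binding protein (0.37, standard error 0.0539). Their adjusted p-values from limma were 0.00477, 0.00142 and 0.00188. With the corneas low in stromal markers left out, or those high in lens markers, none of the 3 was called although their differences stayed at 0.37 or more, and median centring left Bst2 alone. The Bst2 call was also lost without BALB/cN cornea 1, 2 or 4 or C57BL/6N cornea 3 or 4 (adjusted p up to 0.0205). Samhd1, which depletes the nucleotides that reverse transcription needs, differed by 0.35 (adjusted p = 0.05, limma). The retrovirus receptor Slc7a1 and the capsid-binding Fv1 differed by 0.21 and -0.16. The median of the list was 0.21.

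Of 19 interferon-stimulated genes, 18 were called higher in BALB/cN by limma, against the same 2.83%, and their median difference was 1.95. The antiviral Rsad2 had the largest rlog difference, 4.23 (standard error 0.378), and Irf1, a transcription factor, was the exception at -0.09 (adjusted p = 0.597, limma). The mean rlog value of the 19 genes was 11.16, 11.43, 10.79 and 11.52 in BALB/cN corneas 1 to 4 and 9.24, 9.12, 9.0 and 9.0 in C57BL/6N corneas 1 to 4. The list and Apobec3 were both higher in all BALB/cN corneas. Within C57BL/6N the mean of the list was nearly level, where Apobec3 had 8.68, 8.45, 7.55 and 7.87 in corneas 1 to 4. Single genes of the list went different ways. In the same corneas Rsad2 had rlog values of 7.35, 6.97, 6.21 and 5.96, and Irf7 had 10.76, 10.67, 10.89 and 10.92. In BALB/cN corneas 1 to 4 Rsad2 had 10.28, 11.41, 10.24 and 11.46, where Apobec3 was nearly level. The part of the interferon-stimulated program in the Apobec3, Apobec2, Adar, Bst2, Mov10 or Zc3hav1 differences was not tested.

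**Figure D2:**
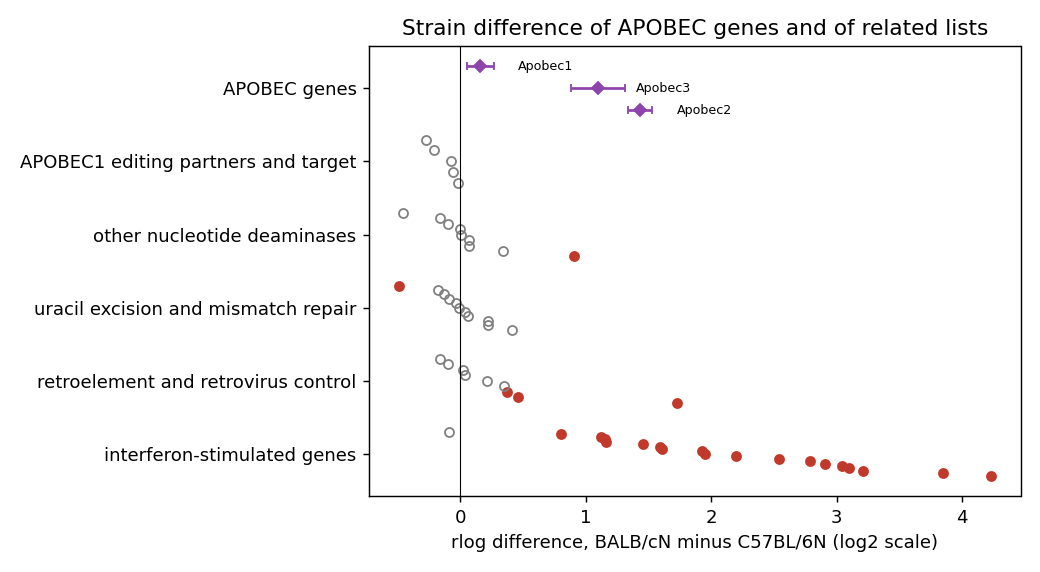
Difference in rlog value (log2 scale), BALB/cN minus C57BL/6N, of the APOBEC genes (diamonds, with standard errors) and of each tested gene of the related lists (circles, filled where called by limma at an adjusted p of 0.01 or less). Apobec2 and Apobec3 lie at 1.43 and 1.1, the APOBEC1 partners lie between -0.27 and -0.02, and 18 of 19 interferon-stimulated genes are filled and to the right of 0.

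**Figure D3:**
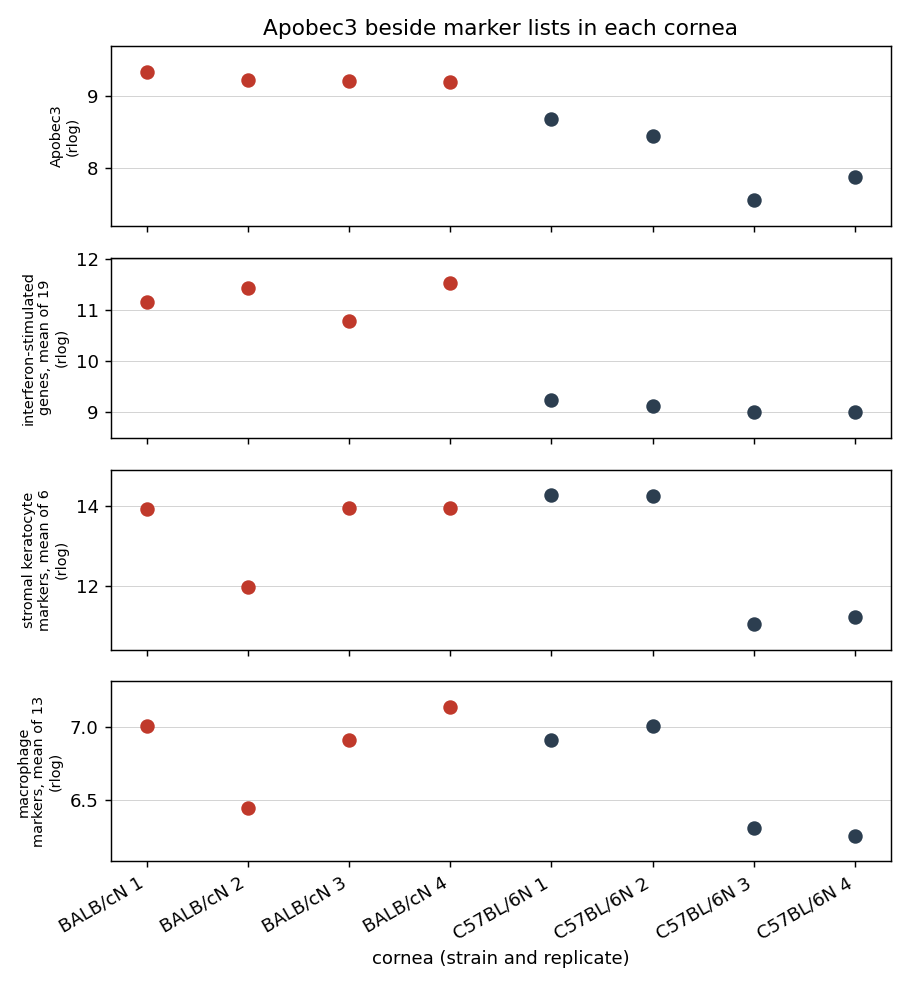
The rlog value of Apobec3 in each cornea, above the mean rlog values of the interferon-stimulated, stromal keratocyte and macrophage lists in the same corneas (BALB/cN red, C57BL/6N dark). C57BL/6N corneas 3 and 4 are the lowest in Apobec3 and in stromal and macrophage markers, while BALB/cN cornea 2 is low in those markers but not in Apobec3. The vertical axes do not start at 0 and differ between panels.

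Most genes beside the APOBEC genes on the chromosome showed clearly smaller differences than Apobec2 and Apobec3. The exception was Rpl3 beside Apobec3, at -1.07 against 1.1 (standard errors 0.112 and 0.216), close in size but opposite in sign. For each APOBEC gene, 3 protein-coding genes on either side were taken, the closest that passed the filter. Over all genes compared, 5.74% were called, 2.83% higher and 2.91% lower in BALB/cN, and 6 genes are too few to set against these shares. Around Apobec1, 0 of 6 were called by limma, with differences from -0.23 (Rimklb) to 0.25 (Slc2a3), and 0.02, -0.18, -0.15 and 0.24 for Phc1, Mfap5, Foxj2 and C3ar1. Around Apobec2, 2 of 6 were called, both higher in BALB/cN. These were Unc5cl, whose rlog mean was only 2.65 in BALB/cN and 2.42 in C57BL/6N (difference 0.23, adjusted p = 0.00742, limma), and Mocs1, an enzyme of molybdenum cofactor synthesis 995 kb away (0.47, adjusted p = 0.000688, limma). The Unc5cl call was lost under 14 of 20 settings, among them leaving out any cornea except BALB/cN cornea 3 (adjusted p up to 0.0251), and its difference was 0.16 (adjusted p = 0.322, limma) with centring on the median, which also ended the Mocs1 call (0.40, adjusted p = 0.0529). Oard1 and Nfya, the next genes on the other side at 1.97 and 9.32 kb from Apobec2, differed by 0.02 and 0.05, while Trem2 and Daam2 differed by 0.18 and 0.45 without being called. Around Apobec3, 1 of 6 was called by limma, Rpl3, and in the opposite direction (-1.07, adjusted p = 0.000234). Rpl3 encodes a ribosomal protein, and reads of such genes can be shared with near-identical pseudogene copies, so this value is uncertain. Pdgfb, a growth factor gene, differed by 0.52 (adjusted p = 0.0406, limma), Nptxr by 0.43, Syngr1 by 0.38, Cbx6 by 0.09 and Dnal4 by -0.03.

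Of the 3 genes that overlap an APOBEC gene, none was called by limma, against 5.74% of all genes. The non-coding D730005E14Rik shares 676 exon bases with Apobec3 on the same strand and differed by 0.28 (standard error 0.0604, adjusted p = 0.0167, limma), with no overlap between the strains, from a low mean rlog value of 2.98 in BALB/cN and 2.70 in C57BL/6N. Reads in the shared bases cannot be given to either gene, so the Apobec3 value is uncertain to that extent. Cbx7 shares 100 exon bases with Apobec3 on the opposite strand and differed by 0.01. AC166164.1, opposite to Apobec2, shares none and differed by -0.07. The libraries were strand-specific.

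**Figure D4:**
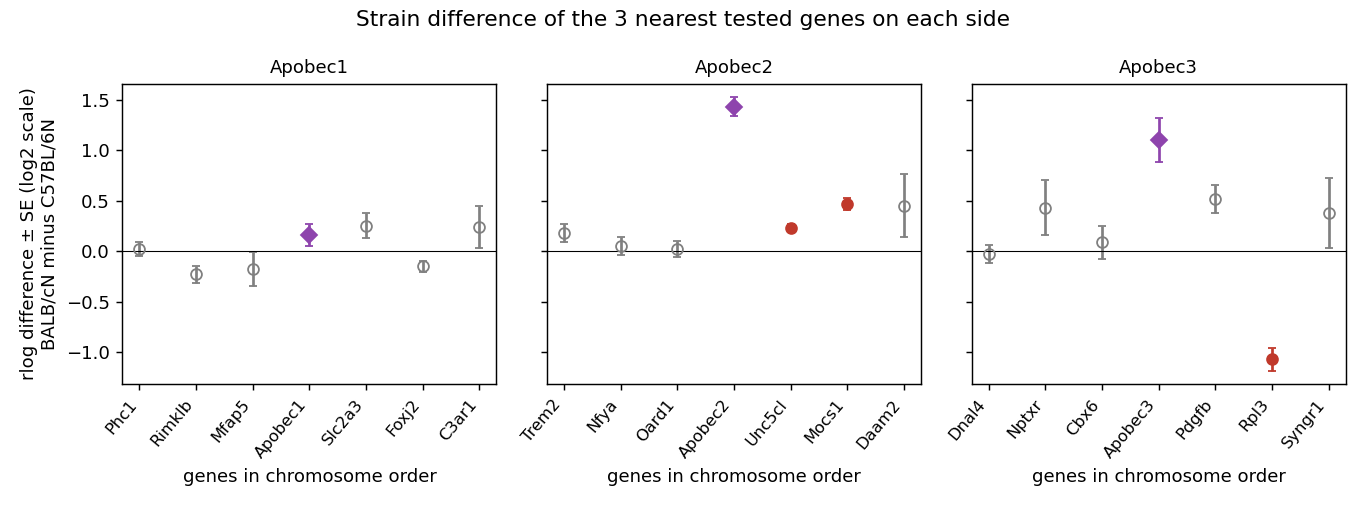
Difference in rlog value (log2 scale, BALB/cN minus C57BL/6N, with standard errors) of Apobec1, Apobec2 and Apobec3 (diamonds) and of the 3 closest protein-coding genes compared on either side, in chromosome order (circles, filled red where called by limma at an adjusted p of 0.01 or less). Mocs1 and Unc5cl lie at 0.47 and 0.23 beside Apobec2, Rpl3 lies at -1.07 beside Apobec3, and no neighbour of Apobec1 is filled.

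The variation of each APOBEC gene among corneas of the same strain was compared with that of 13949 protein-coding genes. Values were taken as deviations from the strain mean, scaled to unit SD, and likeness is the root mean square difference over the 8 corneas, which is 0 for identical patterns and had a median of 1.42, 1.41 and 1.40 for Apobec1, Apobec2 and Apobec3. Among the genes most like Apobec1 were Abcg5 (0.15), Zdbf2 (0.175), Vegfb (0.176) and Gjc1 (0.181), which share its high value in BALB/cN cornea 4. Those most like Apobec2 were Mlxipl (0.144), Lzts3 (0.234), Slc4a1ap (0.253), Enah (0.27) and Jph1 (0.283). Of these, Lzts3 differed by 0.41 between the strains and Mlxipl by -0.01. Those most like Apobec3 were Rps27rt (0.203), Cbx5 (0.208), Aaed1 (0.214), Hcfc2 (0.216) and 1810024B03Rik (0.219), all with low values in C57BL/6N cornea 3. Between the APOBEC genes the value was 1.03 for Apobec1 and Apobec2 and 1.07 for Apobec1 and Apobec3, both under these medians. It was 1.58 for Apobec2 and Apobec3, above them. These patterns rest on 8 corneas that differ in their stromal and lens markers, and the nearest of 13949 genes are close by selection.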

How the data were processed

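Total RNA of 8 corneas was sequenced as paired reads on strand-specific libraries. Reads were aligned by the authors to strain-adapted versions of GRCm38 and counted on the union of exons of Ensembl genes, and the submitters' processing notes name TopHat2 2.1.1, HTSeq 0.7.1 and DESeq2 1.30. The authors deposited rlog values on a log2 scale, normalized for library size and written with decimal commas, and 0 columns were left unused. Gene-level counting leaves isoforms unseen.

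Strains were compared on these values with limma 3.58.1 in R 4.3.3 (eBayes, variance trend, strain as the only term, two-sided), keeping genes whose mean rlog was 0 or more, with Benjamini-Hochberg adjustment over all 25402 genes and a threshold of 0.01. The procedure was tested on simulated data. Summaries and plots used pandas 2.3.3, numpy 2.4.6, matplotlib 3.10.9 and Python 3.11.15. Symbols, lengths and neighbours came from a GRCm38 annotation (54495 of 54532 identifiers matched), which may be another release than the one the authors counted on. The genes, lists and motifs were chosen with earlier results of these data known. The genes named are the APOBEC genes, called genes of the lists, family relatives and APOBEC1 partners, up to 4 further genes per list by absolute difference, 3 neighbours on either side, 5 genes nearest in pattern (among those with a mean of at least log2(10)), overlapping genes, and cell type markers. A few genes that this rule names are not reported here. Other settings were a robust fit, no variance trend, a mean of at least log2(10), no filter, quantile normalization, median centring, an empirical null (p-values rescaled to the spread of the bulk of the genes), an adjusted p of 0.05, a replicate block, and each cornea left out. The stromal covariate and the removal of corneas by stromal or lens markers were chosen after seeing the data.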

Additional observations from a re-analysis of the deposited data

Results flagged for a closer look

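Among 148 groups of 4 corneas checked for a cornea far from the rest, 7 stood out, and about 1 in 20 would by chance. None of them was an APOBEC gene. The value given is the gap to the nearest cornea as a share of the whole range of the group. It was 0.849 for Ung, low in C57BL/6N cornea 4 at an rlog value of 6.78 against 7.12 to 7.18. It was 0.916 for Zc3hav1 and 0.91 for Nfya, both high in C57BL/6N cornea 4. In C57BL/6N cornea 1 Ifit3 (0.91) and Isg15 (0.863) were high, at 9.20 and 9.37. Rtp4 was low in BALB/cN cornea 3 (0.841, at 11.40), and Rpl3 was high in C57BL/6N cornea 3 (0.933, at 10.13 against 9.82 to 9.84).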

How the results depend on the processing

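The differences of Apobec1, Apobec2 and Apobec3 kept their sign with median centring, quantile normalization, the block, the stromal covariate and each removal of corneas. The other settings change the test and not the difference. With each cornea left out they ranged from 0.08 to 0.24, 1.37 to 1.47 and 0.91 to 1.28, and the Apobec3 difference was 0.68 without the corneas low in stromal markers. Of 222 values under other settings, 175 stayed within 1.5 times (counts) or within 1 SD pooled over the strains (differences) of the reported value. The 175 include the counts of a list of family relatives, Apobec4 among them. That list had 0 tested genes, so its count could only be 0 and says nothing about the settings.

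Of the 3 APOBEC genes, 1 in place of 2 was called with no variance trend, with a robust fit, with no filter, with the replicate number as a block or without the corneas high in lens markers, 0 with the empirical null, and 1 to 2 with each cornea left out. This describes the fit only, since the genes were chosen with this contrast known. Over all genes, the called number was 958 with median centring (413 higher and 545 lower, with the median difference moved from 0.00771 to -0.0661), 2842 at an adjusted p of 0.05, 2381 with the stromal covariate, 852 without the corneas low in stromal markers, 447 without those high in lens markers and 953 to 1163 with each cornea left out. The empirical null left 0 genes by limma, where 6009 had an unadjusted p under 0.05 in the reported fit, and so 0 other deaminases, 0 uracil repair genes, 0 retroelement control genes, 0 interferon-stimulated genes and 0 neighbours.

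The uracil repair list had 0 called genes with no filter, median centring, the block, or without the corneas low in stromal or high in lens markers, 2 at an adjusted p of 0.05, and 0 to 1 with each cornea left out. The retroelement control list had 1 with median centring, and 0 with the block or without the corneas low in stromal or high in lens markers. The neighbours had 1 with median centring, 1 with the block and 0 without the corneas high in lens markers. The cause of these changes was not tested, apart from the fewer corneas where some were left out. The labels do not say whether corneas with the same number in the 2 strains were paired. Their deviations from the strain means correlated at 0.305, -0.53, -0.203 and -0.454, and 1 of 4 numbers matched best with itself. These deviations also carry the stromal and lens content of each cornea, so they cannot decide whether the numbers mark a pairing. With the replicate block 554 genes were called, 274 higher and 280 lower. The depth of the libraries is unknown here, and rlog shrinkage limits what weak genes can show.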
